A study of Mus musculus with 8 samples.

Results

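The genes described here are the immediate-early genes Egr1, Egr2, Egr3, Nr4a1, Nr4a2, Nr4a3, Arc, Ier2, Ier3 and Klf4. They were chosen by name, as targets of serum response factor (SRF) and mitogen-activated protein kinase (MAPK) signalling outside the AP-1 family. Earlier results of these data were known when they were chosen. All 10 were found among the 39017 Ensembl identifiers of the count table, and all 10 were among the 18952 genes that passed the expression filter. The cells were mouse embryonic fibroblasts from E13.5 embryos, sequenced as poly(A) RNA. Control and Mettl3 knockout cells each gave total RNA, taken without stress, and RNA of a fraction enriched for stress granules. The granule fraction came from cells given sodium arsenite at 500 µM for 30 min. Each of the 4 groups held 2 biological replicates, so there were 8 libraries.

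Mettl3 is the catalytic subunit of the enzyme that places N6-methyladenosine (m6A) on mRNA. The knockout was induced with 500 nM 4-hydroxytamoxifen for 48 h, which switches on a Cre recombinase, and loss of the protein and of m6A was examined after 7 days. Whether control cells received the drug, which promoter drives the recombinase, and the strain are not given in the sources used here. Arsenite and granule enrichment always went together, so the effects of stress and of fractionation cannot be told apart in a granule to total ratio. In these bulk samples, fewer cells expressing a gene and less RNA per cell cannot be told apart either.

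Immediate-early genes are induced by growth factors, membrane depolarisation or stress without new protein synthesis, because their transcription factors are already in the cell and are activated by phosphorylation. SRF with its ternary complex partners acts at the CArG box, and CREB acts at cyclic AMP response elements, whose core is TGACG. The transcripts are typically short-lived, and AU-rich elements with the pentamer ATTTA in the 3′ UTR are a known mark of such mRNAs. Arsenite is a known activator of these kinase pathways, and cultured fibroblasts are a classical system for serum induction of Egr1 and Nr4a1.

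The members are compact genes. In the GENCODE M21 annotation of GRCm38, 9 of 10 spanned less of the genome than the median of 15239 tested coding genes with a 3′ UTR (median 5368 bases against 23196). Each longest coding transcript had 1 to 8 exons, fewer than the median of 9. Their GC content ranged from 47.9% in Nr4a2 to 60.9% in Ier2, with 8 of 10 above the median of 50.4%. Transcript length did not set them apart, with a median of 3042 bases against 3069. No exon of a member overlapped an exon of another annotated gene.

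RefSeq promoter windows of 300 bases (250 before and 50 after the start site, GRCm38.p6) were matched for 6 of the 10 members, with Egr1 not searched. Those shown are the windows with the most sites for the factors named above. Capitals mark the CArG box, TGACG and TATAAA on either strand, so the reverse complements CGTCA and TTTATA are in capitals too. For Egr2, a zinc finger transcription factor, the window is chr10:67537619-67537918 on the plus strand. For the orphan nuclear receptors the windows are chr15:101266596-101266895 on the plus strand (Nr4a1), chr2:57123954-57124253 on the minus strand (Nr4a2) and chr4:48045055-48045354 on the plus strand (Nr4a3). The first transcribed bases of the Egr2 and Nr4a3 windows were found in the longest coding transcript used above. Those of the Nr4a1 and Nr4a2 windows were not.
Egr2: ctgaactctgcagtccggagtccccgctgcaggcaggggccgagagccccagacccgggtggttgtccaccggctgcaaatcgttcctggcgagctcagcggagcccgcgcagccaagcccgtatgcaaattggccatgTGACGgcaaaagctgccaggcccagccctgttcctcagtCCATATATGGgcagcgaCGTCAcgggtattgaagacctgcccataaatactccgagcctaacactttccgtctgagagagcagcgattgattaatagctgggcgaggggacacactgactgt
Nr4a1: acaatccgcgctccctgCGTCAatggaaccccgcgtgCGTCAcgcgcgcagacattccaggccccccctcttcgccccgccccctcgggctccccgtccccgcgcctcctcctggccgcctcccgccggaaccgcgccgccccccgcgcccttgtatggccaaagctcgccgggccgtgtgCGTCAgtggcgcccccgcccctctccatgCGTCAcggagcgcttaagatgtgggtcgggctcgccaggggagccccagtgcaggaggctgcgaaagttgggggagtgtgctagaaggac
Nr4a2: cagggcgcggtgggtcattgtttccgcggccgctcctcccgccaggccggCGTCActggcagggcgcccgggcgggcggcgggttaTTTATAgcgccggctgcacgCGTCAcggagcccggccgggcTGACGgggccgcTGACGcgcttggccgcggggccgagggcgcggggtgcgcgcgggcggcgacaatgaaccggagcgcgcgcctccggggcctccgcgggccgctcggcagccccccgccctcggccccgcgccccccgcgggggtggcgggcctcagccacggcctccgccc
Nr4a3: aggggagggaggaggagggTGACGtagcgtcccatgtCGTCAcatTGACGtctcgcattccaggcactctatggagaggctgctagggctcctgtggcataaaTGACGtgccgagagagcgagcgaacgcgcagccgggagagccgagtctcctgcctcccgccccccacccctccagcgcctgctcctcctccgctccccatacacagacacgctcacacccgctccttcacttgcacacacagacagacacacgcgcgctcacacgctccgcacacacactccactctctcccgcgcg

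The Egr2 window holds the CArG box CCATATATGG from -72 to -63 of the start site, with 2 TGACG sites beside it. A CArG box was found in 1.63% of all 32851 windows of that length. Each of the Nr4a windows holds 4 TGACG sites. At least 1 was found in 20.8% of all windows and 4 or more in 0.231%. The palindrome TGACGTCA, which contains TGACG, was in none of these windows and in 1.79% of all. The window of Klf4 held 1 TGACG site and that of Ier3 none, and neither held a CArG box. These matches are descriptions of the letters and say nothing of binding in these cells.

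The ATTTA pentamer occurred 0 to 7 times in the members' 3′ UTRs, with a median of 3 against 1 over the tested coding genes. Egr3 had 7, Ier3 and Nr4a3 had 5 each, and Arc and Ier2 had none. Per length, Ier3 held 8.16 per kb and lay above 98.4% of genes, and Nr4a1 held 5.53 and lay above 95.3%. Their densest 30-base windows, each with 2 pentamers in capitals, are chr17:35822476-35822505 and chr15:101274701-101274730, both on the plus strand. Windows were kept only where they held at least 2 pentamers, and Egr1 was not searched.
Ier3: ctccgtgtctaattaatATTTAtgtATTTA
Nr4a1: gATTTAtatttgtgtattttcctggATTTA
GGACT, a common form of the m6A consensus, occurred 1 to 5 times per transcript, with a median of 2.5 in the members against 3 in all. Ier2 was the densest, at 3.29 per kb, above 98.6% of genes. No m6A map was used here.

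Total counts ranged from 67257220 to 123508539 per library. A member's count in a library ranged from 62 (Nr4a3, control total) to 168876 (Egr1, knockout granule), and all levels below are CPM (counts scaled to library size by the trimmed mean of M-values, TMM). Mettl3 checked the labels, at 24.9 and 25.4 CPM in control total, 15.4 and 15.7 in control granule, 6.0 and 7.35 in knockout total, and 5.56 and 6.38 in knockout granule libraries. It fell by 1.91 on the log2 scale in knockout total RNA (SE 0.27, edgeR adjusted p = 0.0345) and by 1.38 in knockout granules (SE 0.26, adjusted p = 0.0208). Replicates differed by a median absolute log2 ratio of 0.101 to 0.312 in 3 groups and of 0.813 in knockout total RNA. These medians were taken over the 10261 genes averaging 5 CPM or more. The 10 fibroblast markers all reached 1 CPM, with a summed level of 6049 to 8978 CPM. Single ones were uneven, from 2.37 to 2633 CPM in control total libraries. By edgeR at an adjusted p under 0.05, 2 were lower and 0 higher in control granule against total (4.17% and 5.89% of all genes). In knockout granule against total 3 were higher and 1 lower (9.17% and 8.47%). In knockout against control granules 3 were higher and 1 lower (5.79% and 3.66%). In total RNA 0 of the 10 passed (0.412%). Neuronal markers summed to 2.05 to 5.19 CPM, macrophage markers to 24.6 to 54.5, endothelial markers to 6.1 to 19.7, skeletal muscle markers to 1.65 to 5.88 and erythroid markers to 10.1 to 29.9. Their part in the results below was not tested.

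Per kilobase of exon, levels in control total RNA spanned from 0.206 ± 0.0249 for Egr3 to 135 ± 11.6 CPM per kb for Ier3 (SD, n = 2). Ier3 and Ier2 held the top places in every group. In control total RNA they were followed by Egr1 at 31.1 ± 1.33, Klf4 at 29.6 ± 3.89 and Nr4a1 at 10.6 ± 0.987, and Arc, Nr4a2 and Egr2 lay between 1.13 and 2.91. Nr4a3 and Egr3 were the lowest, at 0.209 ± 0.0808 and 0.206 ± 0.0249. In control granules Arc reached 67.6 ± 4.49 and Nr4a1 138 ± 10.8 CPM per kb, and both passed Klf4, which stood at 25.1 ± 0.537. Nr4a1 thereby moved from above 76.6% of tested genes to above 98.2%, and Arc from above 56.9% to above 95.9%.

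**Figure D1:**
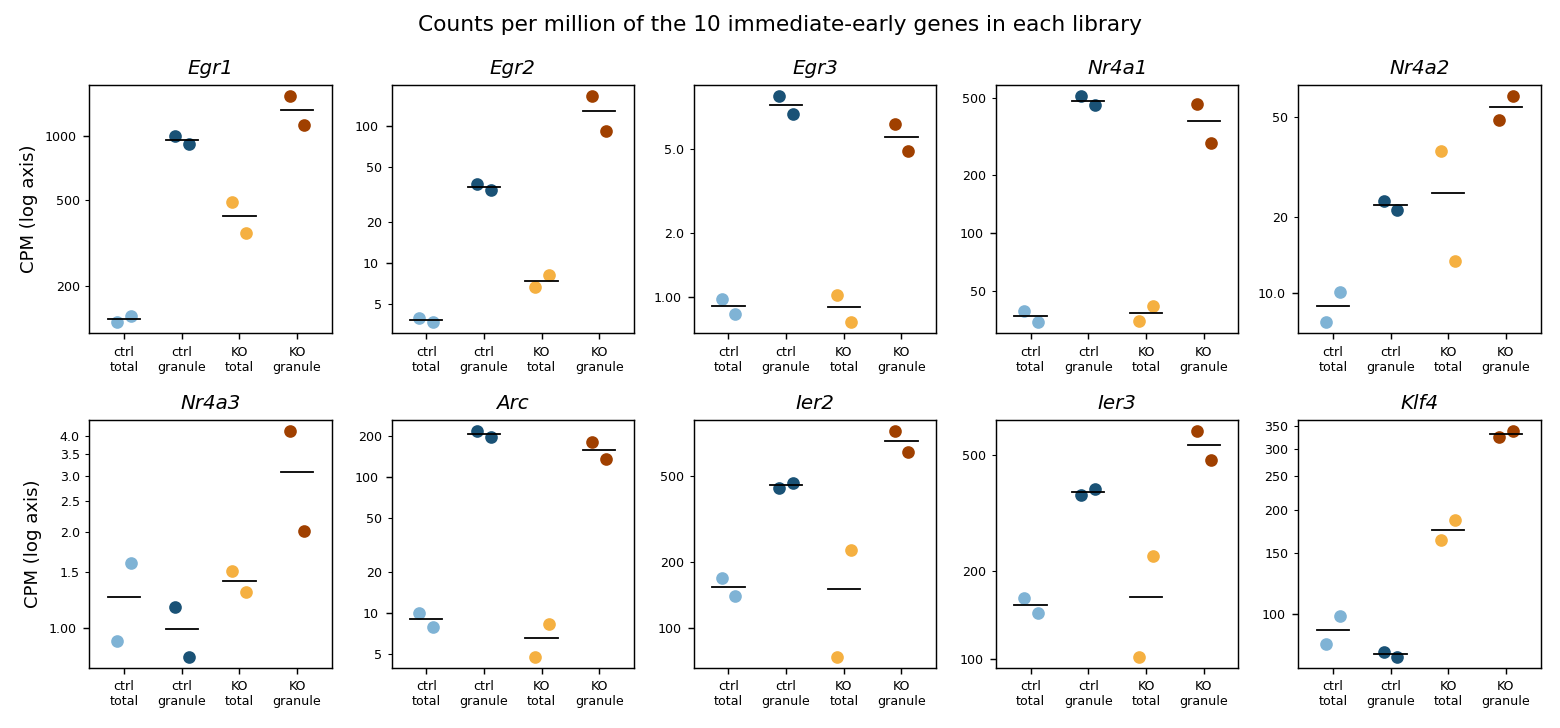
Each panel plots 1 gene, with CPM on a log axis and the 4 groups on the x axis (ctrl, control; KO, Mettl3 knockout). Points are libraries and bars are group means. Egr1 rises from 135 and 144 CPM in control total to 999 and 923 in control granule libraries, and Klf4 is the gene whose control granule libraries lie below its control total libraries.

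Granule libraries were first set against total RNA in control cells. Of the 10 members, 5 rose (Egr1, Egr2, Egr3, Nr4a1 and Arc), none fell, and 5 did not pass the test, edgeR's quasi-likelihood test with Benjamini-Hochberg adjustment at 0.05. Among all genes tested, 5.89% were called higher and 4.17% lower. The members' median log2 fold change was 2.16, against -0.06 over all genes. The granule libraries lay above the total libraries without overlap for 8 members and below them for Klf4, as they did for 35.2% and 37.3% of all genes. In knockout cells 8 of 10 rose and none fell, against 9.17% and 8.47% of all genes. The granule libraries lay above the total libraries for all 10, against 31.5% of all genes above and 26.5% below. The median there was 2.0 (all genes 0.04). The comparisons in the separate genotypes share no library. Of the 4 epithelial markers, none was called in control granules and 2, Krt8 and Krt18, were called higher in knockout granules. Krt8 was at 2.5 and 0.981 CPM in control total, 3.97 and 3.94 in control granule, 0.36 and 0.374 in knockout total, and 4.67 and 4.59 in knockout granule libraries. The summed epithelial level was 204 to 336 CPM in control total, 677 to 713 in control granule, 49.1 to 89.5 in knockout total and 527 to 664 in knockout granule libraries, while Epcam and Cdh1 stayed at or below 2.16 CPM. Their part in the members' values was not tested.

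The number of calls rested on single libraries, for the members as for all genes. With all libraries edgeR called 10.1% of all genes in either direction in control cells and 17.6% in knockout cells. Without control total replicate 1 only Nr4a1 and Arc were called in control cells, with 0.373% of all genes. Without control total replicate 2, control granule replicate 1 or control granule replicate 2 edgeR called 0 members and 0 of all genes, with 6, 7 and 8 members at an unadjusted p under 0.05. Without knockout total replicate 1 or knockout total replicate 2, libraries outside the comparison that share its estimate of spread, 8 members were called, with 40.6% and 39.9% of all genes. DESeq2 and voom with a quality weight per library called 8 members too, with 21.5% and 39.1% of all genes. In knockout cells 3 members were called without knockout granule replicate 1 (Egr2, Nr4a1 and Arc) and 4 without knockout granule replicate 2, with 1.47% and 1.22% of all genes. A fit of these 4 libraries alone called 0 members and 0 of all genes, with 7 members at an unadjusted p under 0.05. DESeq2 called 8 members (26.9% of all genes) and voom 6 (5.18%). The fold changes themselves moved little for the 5 called in control cells. Over the 8 fits that each left out a library, the log2 fold change in control cells was 2.75 to 2.88 for Egr1, 3.19 to 3.33 for Egr2, 3.05 to 3.32 for Egr3, 3.65 to 3.82 for Nr4a1 and 4.41 to 4.73 for Arc. In knockout cells it was 1.30 to 1.91, 3.56 to 4.47, 2.33 to 2.88, 2.85 to 3.59 and 4.26 to 4.92 for the same genes.

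**Figure D2:**
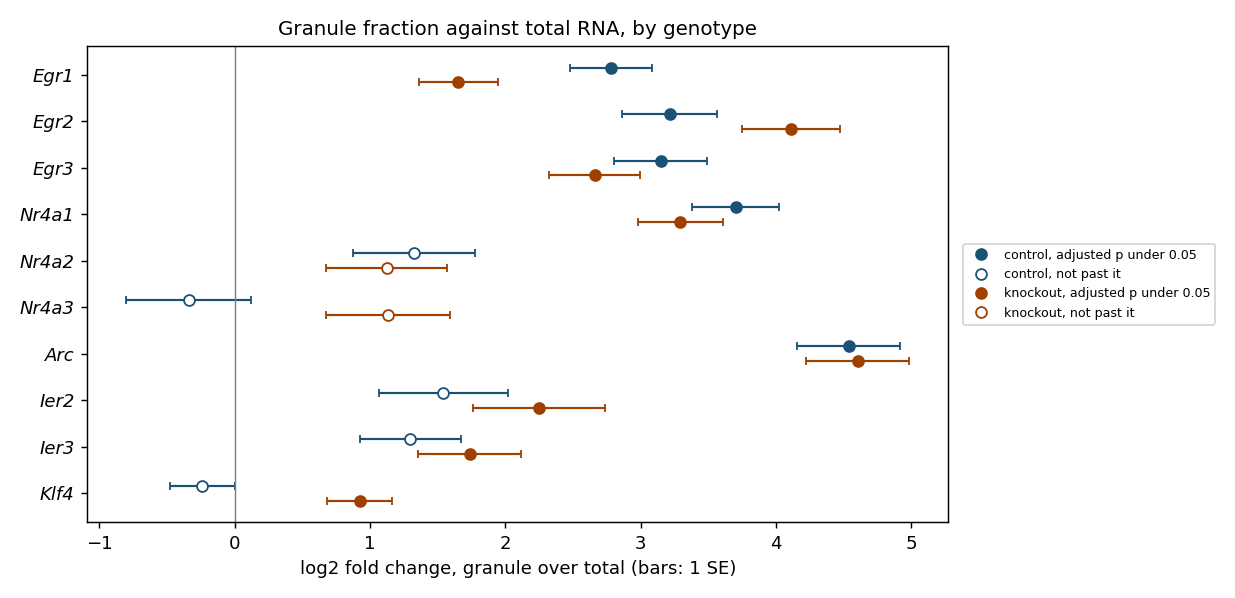
The x axis is the log2 fold change of granule over total with bars of 1 SE, for control (blue) and knockout (brown) cells. Filled points passed an adjusted p of 0.05. Arc is highest in both genotypes (4.54 and 4.61), and Nr4a3 and Klf4 lie below 0 in control cells only, at -0.34 and -0.24, without passing the test there.

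Arc encodes a cytoskeleton-associated protein best known from activated neurons, where its mRNA is transported to synapses. In these fibroblasts it stood at 9.99 and 7.82 CPM in control total, 216 and 197 in control granule, 4.76 and 8.19 in knockout total, and 180.4 and 135 in knockout granule libraries. Granule and total libraries were far apart in both genotypes, and the total libraries of the genotypes overlapped. The fold changes were 23.2 in control (log2 4.54, SE 0.38, edgeR adjusted p = 0.00302) and 24.3 in knockout cells (log2 4.61, SE 0.38, adjusted p = 0.00213). The difference between them, on the log2 scale, was 0.07 (SE 0.46). Its sign turned to -0.86 when the GC trend of each library was removed.

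Nr4a1, Nr4a2 and Nr4a3 encode closely related nuclear receptors that act without a known ligand, and they did not move alike. Nr4a1 was at 39.6 and 34.7 CPM in control total, 509.7 and 456 in control granule, 35.1 and 41.8 in knockout total, and 464 and 291 in knockout granule libraries. The fraction separated its libraries and the genotype did not, since control and knockout libraries overlapped within each fraction. Its log2 fold change was 3.70 (SE 0.32, adjusted p = 0.00338) in control and 3.30 (SE 0.32, adjusted p = 0.00232) in knockout cells.

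Nr4a2 was lower, at 7.69 and 10.1 CPM in control total, 23.2 and 21.3 in control granule, 36.5 and 13.4 in knockout total, and 48.5 and 60.2 in knockout granule libraries. Its groups ran from knockout granule over knockout total and control granule to control total, and the wide knockout total pair overlapped control granule. The granule to total changes of 1.32 (SE 0.45, adjusted p = 0.0966) and 1.12 (SE 0.45, adjusted p = 0.119) on the log2 scale did not pass. The knockout value was 2.02 and called without knockout total replicate 1, and 0.448 and not called without knockout total replicate 2. Nr4a3 was the scarcest of the family, at 0.912 and 1.6 CPM in control total, 1.17 and 0.817 in control granule, 1.51 and 1.3 in knockout total, and 4.14 and 2.01 in knockout granule libraries. Its knockout granule libraries were the highest and its other groups overlapped, apart from knockout total and control granule. Neither its control change of -0.34 (SE 0.46, adjusted p = 0.656) nor its knockout change of 1.13 (SE 0.46, adjusted p = 0.123) passed.

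The Egr genes encode zinc finger transcription factors that bind a common GC-rich site. Egr1 stood at 135 and 144 CPM in control total, 999 and 923 in control granule, 494 and 352 in knockout total, and 1537 and 1123 in knockout granule libraries. No groups overlapped, and knockout total RNA was already above control total RNA. The granule to total fold was 6.88 in control (log2 2.78, SE 0.30, adjusted p = 0.00485) and 3.14 in knockout cells (log2 1.65, SE 0.29, adjusted p = 0.0103). With the GC trend removed the knockout value was 1.08 and was no longer called (adjusted p = 0.0740).

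Egr2 was scarce in total RNA, at 3.96 and 3.72 CPM in control and 6.68 and 8.11 in knockout cells. In granule libraries it stood at 37.4 and 33.8 in control and 164 and 91.7 in knockout cells, and no groups overlapped. Its log2 fold change was 3.21 (SE 0.35, adjusted p = 0.00491) in control and 4.11 (SE 0.36, adjusted p = 0.00213) in knockout cells. Egr3 was near 1 CPM in total RNA, at 0.985 and 0.831 in control and 1.03 and 0.768 in knockout libraries, with 67 to 115 counts behind each value. In granule libraries it stood at 8.83 and 7.28 in control and 6.52 and 4.89 in knockout cells, so that here the control granule group was the highest. Its log2 fold changes were 3.15 (SE 0.34, adjusted p = 0.00485) and 2.66 (SE 0.34, adjusted p = 0.00382).

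Ier2, a nuclear protein of the serum response, and Ier3, a regulator of cell survival and ERK signalling, had the highest levels per length. Ier2 stood at 169 and 139.8 CPM in control total, 437 and 464 in control granule, 74.1 and 228 in knockout total, and 801 and 641 in knockout granule libraries. Ier3 stood at 162 and 143, 366 and 385, 102 and 225, and 606 and 483 CPM in the same order. For both genes the knockout total pair was so wide that it enclosed the control total pair. In control cells the log2 fold changes of 1.54 for Ier2 (SE 0.48, adjusted p = 0.0761) and 1.30 for Ier3 (SE 0.38, adjusted p = 0.0645) did not pass. In knockout cells Ier2 rose by 2.25 (SE 0.49, adjusted p = 0.0211) and Ier3 by 1.74 (SE 0.38, adjusted p = 0.0218). With a library left out, Ier2 ran from 1.65 to 3.15, called in 6 of 8 fits, and Ier3 from 1.27 to 2.29, called in 3 of 8. With the GC trend removed both were called in control cells too, at 1.96 and 1.62.

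Klf4, a zinc finger factor known from reprogramming to pluripotency, had another pattern. It stood at 81.8 and 98.6 CPM in control total, 77.7 and 75.4 in control granule, 163 and 187 in knockout total, and 325 and 339 in knockout granule libraries. All groups were apart, and both knockout groups lay above both control groups. Its control change of -0.24 (SE 0.24, adjusted p = 0.535) did not pass and turned to 0.07 with the GC trend removed. In knockout cells it rose by 0.92 (SE 0.24, adjusted p = 0.0346), a call kept in 5 of 10 other settings and in 2 of the 8 fits that each left out a library. It was lost with voom, no expression filter, only the groups compared, and the replicate block with or without removal of the GC trend.

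An interaction term compared the granule to total ratios of the genotypes. By edgeR 0 of 10 members were called (0.517% of all genes were), with Egr1 and Klf4 at an unadjusted p under 0.05. DESeq2 called Klf4 alone (1.13, adjusted p = 0.0199) with 14.5% of all genes, and voom called 0 with 2.11%. Egr1 had a log2 difference of -1.13 (SE 0.40, adjusted p = 0.142), which was -2.07 with the GC trend removed. Klf4 had 1.16 (SE 0.34, adjusted p = 0.108), which was 0.61 with the GC trend removed, and Nr4a3 1.47 (SE 0.65, adjusted p = 0.198), and the values of the other 7 members lay between -0.49 and 0.90. Without knockout total replicate 1 edgeR called Egr1 and Klf4, with 18.6% of all genes. Without knockout total replicate 2 it called Egr1, Nr4a2, Ier2, Ier3 and Klf4, with 46.4% of all genes.

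Knockout cells were then compared with control cells within each fraction. In total RNA edgeR called 0 of 10 members, and 0.412% of all genes were called. Egr1, Egr2, Nr4a2 and Klf4 had an unadjusted p under 0.05, and their knockout libraries lay above their control libraries without overlap, as did 24.4% of all genes, while 24.7% lay below. DESeq2 called these 4 genes, with 13.2% of all genes, and voom called 0, with 0.164%. Egr1 was 3.03 times as high in knockout total RNA (log2 1.6, SE 0.29, adjusted p = 0.0674), Nr4a2 2.81 times (1.49, SE 0.45, adjusted p = 0.145), Klf4 1.94 times (0.96, SE 0.24, adjusted p = 0.123) and Egr2 1.93 times (0.95, SE 0.33, adjusted p = 0.158). The Nr4a2 value moved to 0.59 without knockout total replicate 1 and to 2.14 without knockout total replicate 2. The other 6 members had log2 values from -0.46 to 0.16 and overlapping libraries. Egr1 and Klf4 were called with the GC trend removed, at 2.34 and 1.38 (4.25% of all genes called), and without knockout total replicate 1, at 1.34 and 1.05 (5.52%). Without knockout total replicate 2, 6 members were called, of which Arc and Ier2 were lower, with 47.8% of all genes.

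In the granule fraction 2 of 10 members rose in knockout cells and none fell, against 5.79% of all genes called higher and 3.66% lower. Klf4 rose 4.34-fold (log2 2.12, SE 0.25, adjusted p = 0.00584) and Egr2 3.59-fold (log2 1.84, SE 0.33, adjusted p = 0.0182). Nr4a3 (1.63, SE 0.47, adjusted p = 0.0664) and Nr4a2 (1.29, SE 0.45, adjusted p = 0.112) did not pass. Ier2, Ier3 and Egr1 had positive log2 values of 0.47 to 0.68, and Arc, Nr4a1 and Egr3 negative values of -0.36 to -0.50, none of them past the test. Knockout libraries were above control libraries without overlap for 7 members, against 40.4% of all genes. They were below without overlap for Arc and Egr3, and for 36.6% of all genes.

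With all libraries 9.45% of all genes were called in either direction. Every fit that left out a granule library called 0 members by edgeR, with 2 or 3 at an unadjusted p under 0.05, and 0 to 0.433% of all genes. The Klf4 value stayed between 2.04 and 2.10 over all 8 such fits, and that of Egr2 between 1.31 and 2.19. Without control total replicate 2 only Klf4 was called, with 3.67% of all genes. Without knockout total replicate 1 or knockout total replicate 2, Egr2, Nr4a2, Nr4a3, Ier2, Ier3 and Klf4 were called, with 39.0% and 38.9% of all genes. DESeq2 called 4 members (17.8% of all genes) and voom 9 (55.0%). A fit of the granule libraries alone called 9, of which Arc and Egr3 were lower, with 57.3% of all genes.

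**Figure D3:**
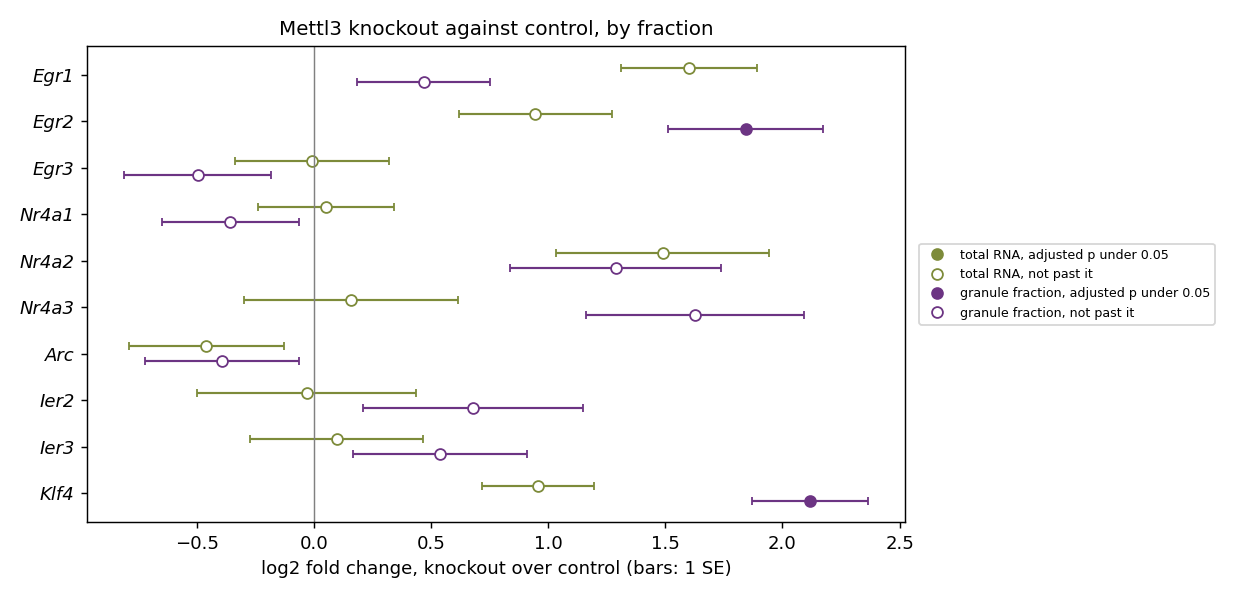
The x axis is the log2 fold change of knockout over control with bars of 1 SE, in total RNA (green) and in the granule fraction (purple). Filled points passed an adjusted p of 0.05. Klf4 and Egr2 pass in the granule fraction at 2.12 and 1.84, and no gene passes in total RNA, where Egr1 is highest at 1.6.

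GC content moved with the difference between the replicates of total RNA. Across the 10212 genes averaging 5 CPM or more with annotated GC content, the log2 ratio of replicate 1 to replicate 2 correlated with GC. Spearman rho was -0.733 in knockout total and 0.763 in control total RNA, as a description over genes that share the libraries. Among the 10 members the same rho was -0.588 in knockout total and 0.661 in control total RNA. In knockout total RNA Ier2, the most GC-rich member, had a log2 ratio of replicate 1 to replicate 2 of -1.62, Ier3 of -1.14, and Nr4a2, the least GC-rich, of 1.45. These were the 3 members that differed more than 2-fold between those replicates, and none did so in control total or control granule libraries. In knockout granule libraries only Nr4a3 differed that much, by 1.03, and rho over the members was -0.0303. In control granule libraries rho over the members was -0.515. Across the 10212 genes it was -0.155 in control granule and 0.0416 in knockout granule libraries.

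**Figure D4:**
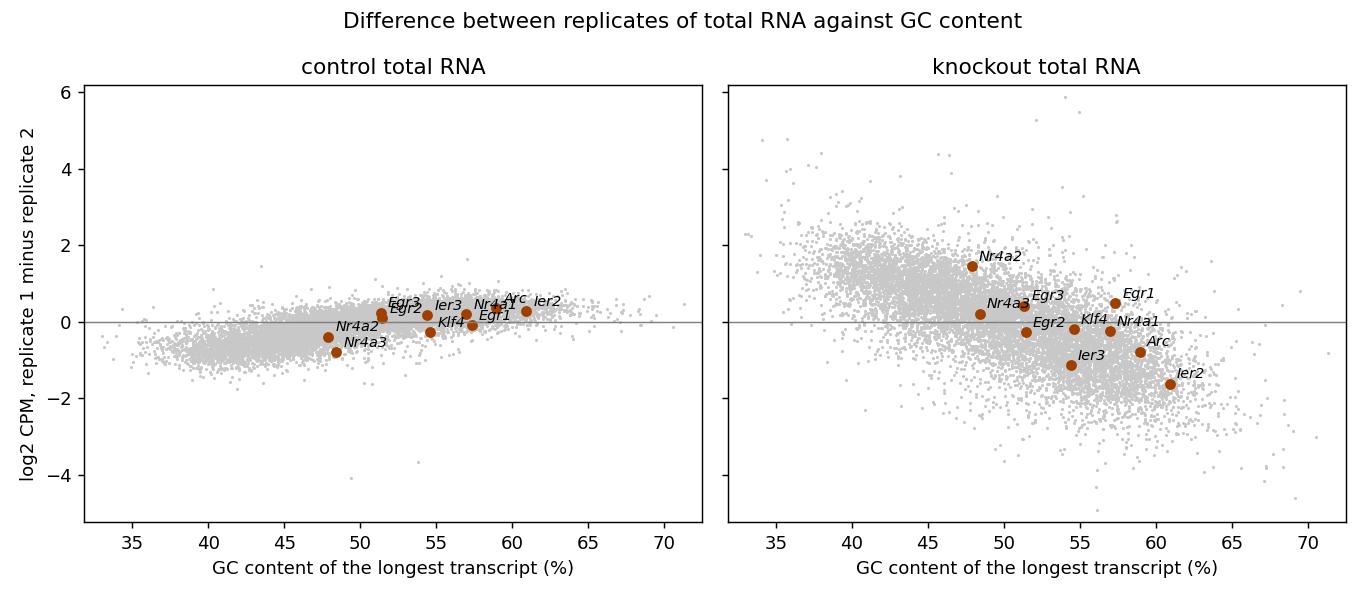
The x axis is the GC content of the longest transcript in percent, and the y axis is the log2 CPM of replicate 1 minus replicate 2 of total RNA, for control (left) and knockout (right) cells. Grey points are genes averaging 5 CPM or more and brown points the members. In knockout total RNA Nr4a2 lies at 1.45 and Ier2 at -1.62.

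Other genes of the response were described from lists. Of 45 further immediate-early genes, 44 passed the filter. In control granules 17 were higher, 2 lower and 25 did not pass, with a median log2 fold change of 1.26 (all genes -0.06). Of all genes 5.89% were called higher and 4.17% lower there. In knockout granules 13 were higher and 2 lower, against 9.17% and 8.47% of all genes, with a median of 0.67 (all genes 0.04). The highest in control cells were the AP-1 subunits Fosb at 3.68 and Fos at 2.88 and the ERK phosphatase Dusp5 at 3.21. Fos rose from 13.3 and 12.1 CPM to 97.2 and 89.9. The lowest were the chemokine Cxcl1 at -2.0, which fell from 211 and 275 to 64.4 and 57.5 CPM, the chemokine Ccl2 at -1.34 (adjusted p = 0.0787) and the stress factor Atf3 at -1.24 (adjusted p = 0.0231). In knockout against control total RNA 0 of the 44 were called, where 0.412% of all genes were. In granules 1 was higher and 1 lower, against 5.79% and 3.66% of all genes.

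Of 26 genes upstream, the kinases and factors of the SRF and MAPK pathway, 2 were higher and 2 lower in control granules (median 0.17), against 5.89% and 4.17% of all genes. In knockout granules 2 were higher and 4 lower (median 0.01), against 9.17% and 8.47%. In knockout against control total RNA 0 of the 26 were called, where 0.412% of all genes were (median -0.10, all genes 0.02). In the granule fraction 0 were higher and 2 lower, against 5.79% and 3.66% of all genes (median -0.56, all genes 0.08). Elk3, a ternary complex partner of SRF, rose from 91.3 and 81.7 to 284 and 269.6 CPM in control cells, and the kinase genes Rps6ka2 and Mknk1 fell by 2.49 and 1.16 on the log2 scale. Among the cofactors, Rxrg did not pass the filter. Of the other 4, Nab2, a corepressor that binds Egr proteins, was called higher in knockout granules (2.32, adjusted p = 0.0173), where its total RNA pair was 18.4 and 52.8 CPM. The corepressor Nab1 and the receptor partners Rxra and Rxrb were not called in any comparison.

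Of 14 cytoskeletal targets of SRF and its MRTF cofactors, 4 were lower, 0 higher and 10 not called in knockout against control total RNA (median -1.22, all genes 0.02), where 0.412% of all genes were called. With the replicate block or only the groups compared, no gene of the whole table was called there. In granules 7 were lower, 0 higher and 7 not called (median -1.15, all genes 0.08), against 3.66% of all genes lower. Acta2, smooth muscle actin, was at 946 and 612 CPM in control total and 67.4 and 57.4 in knockout total libraries. In granule against total none of the 14 was called in control cells, where 10.1% of all genes were. In knockout cells 3 were higher and 1 lower, against 9.17% and 8.47% of all genes. Of 8 genes for AU-rich element binding proteins, 2 were higher and 0 lower in control granules, against 5.89% and 4.17% of all genes. These were the decay factors Zfp36 (2.12, adjusted p = 0.00864) and Zfp36l2 (1.81, adjusted p = 0.0111). In knockout granules Zfp36 alone was called, higher (1.73, adjusted p = 0.00745), against 9.17% of all genes higher, and Zfp36l2 had -0.84 (adjusted p = 0.0609). In knockout against control total RNA 0 of the 8 were called, where 0.412% of all genes were. In the granule fraction 0 were higher and 1 lower, against 5.79% and 3.66% of all genes, namely Zfp36l2 (-1.28, edgeR adjusted p = 0.0262). For Zfp36l2 alone the difference between genotypes in granule to total ratio was itself called by edgeR, where 0.517% of all genes were. It was -2.65 (SE 0.37, adjusted p = 0.0405). With the replicate block no gene of the whole table was called for that difference. Over the 8 genes it ran from -2.65 to -0.37, with a median of -1.10 (all genes 0.09). Zfp36 and Zfp36l1 are also on the list of further immediate-early genes.

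**Figure D5:**
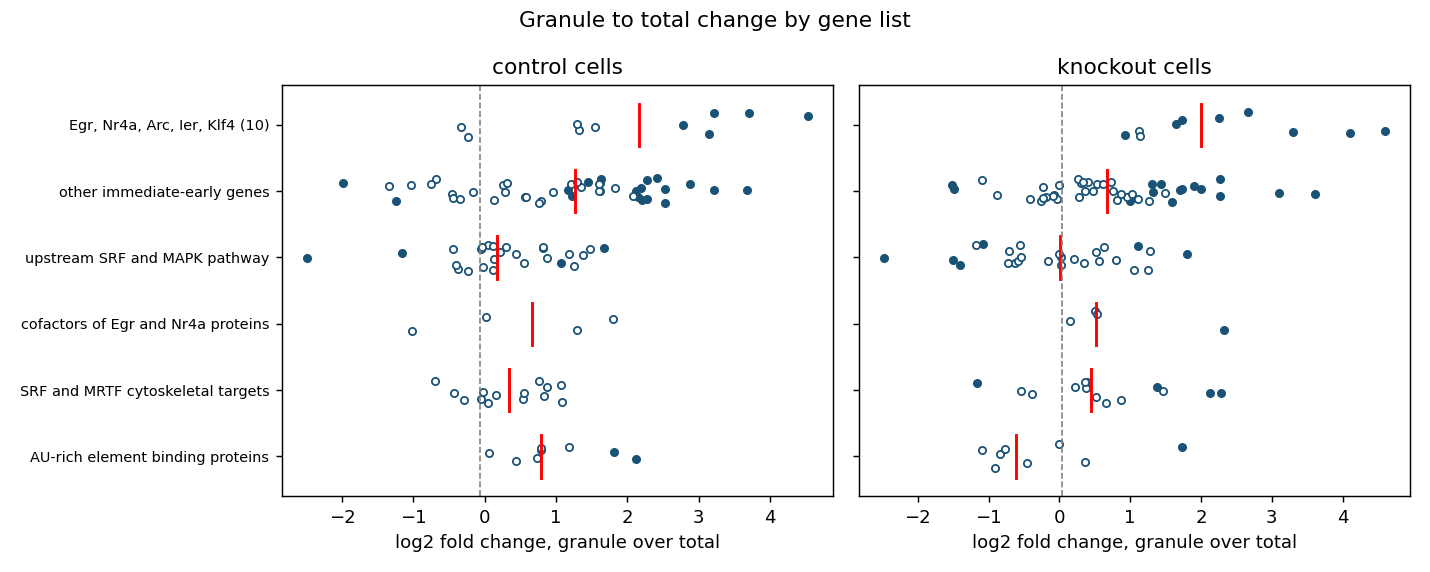
The x axis is the log2 fold change of granule over total in control (left) and knockout (right) cells, with 1 row per gene list. Each point is a gene, filled where the adjusted p was under 0.05, red bars are list medians and the dashed line is the median of all genes. The median of the 10 members is 2.16 in control and 2.0 in knockout cells, against 1.26 and 0.67 for the further immediate-early genes.

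The members' own profiles over the 8 libraries were compared with their mean after standardising log2 CPM. That mean includes the member compared, which raises the r of a member but not of other genes. Egr2 lay closest to it (Pearson r = 0.999), 7 others had r of 0.816 to 0.933, and Nr4a3 (0.585) and Klf4 (0.554) lay farthest. Among 10209 other genes averaging 5 CPM or more, the 5 most alike were Spry2 (0.993), Arl4a (0.992), Ubn1 (0.983), Atxn7l3b (0.983) and Ctdspl (0.983), and 312 genes reached 0.9 or more. Spry2, a feedback inhibitor of receptor tyrosine kinase signalling, stood at 20.2 and 22.7 CPM in control total, 69.6 and 66.8 in control granule, 30.4 and 33 in knockout total, and 112 and 101 in knockout granule libraries. Its libraries ordered as those of the Egr2 groups did, with knockout granule highest and control total lowest. All of these values share the same 8 libraries and their depth.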

How the data were processed

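Poly(A) RNA of 8 mouse fibroblast libraries in 4 groups of 2 was measured by Illumina sequencing, as the labels state. The deposited values are raw counts per Ensembl gene, with 1 column per library. STAR, DESeq2, GRCm38 and mm10 are named in the submitters' processing notes, with no role or version. The counting program, strand setting and annotation release are not given in the sources used here. Identifiers were matched to symbols with GENCODE M21, which held 37693 of 39017.

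From the counts, genes were filtered with filterByExpr and scaled by TMM, and 5 contrasts were tested in 1 fit of all 8 libraries (4 residual degrees of freedom) with edgeR 4.0.16 (glmQLFit, robust, and glmQLFTest) in R 4.3.3. P-values were Benjamini-Hochberg adjusted over 18952 genes, and a gene was called at an adjusted p under 0.05. A standard error is the log2 fold change divided by the square root of F. Log2 CPM used a prior count of 2. The labels call the replicates biological but do not say that they came from separate embryos, so p-values measure the spread between these samples. The code was tested on simulated data with an equal spread in all groups and no GC trend. That test does not show how an unequal spread or a GC trend affects the calls. Alternatives used other scaling, DESeq2 1.42.0, voom with quality weights (limma 3.58.1), other expression filters, a replicate block, removal of each library's GC trend (lowess span 0.3), only the groups compared, and each library left out.

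The members and lists were chosen with earlier results of these data known. Named besides the members are Mettl3, the 5 genes most like their mean profile, and from each list genes among the 3 highest and 3 lowest fold changes in control granule against total. Outside that rule, chosen after values were seen, are Rxrg (not tested), Zfp36l1 (membership only), Krt8, Krt18, Epcam and Cdh1. A library's 3 counts equal 0.0264 to 0.0441 CPM.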

Additional observations from a re-analysis of the deposited data

How the results depend on the processing

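Of 880 alternative values for single members, 692 kept their direction and side of the threshold, 58 lost a call, 87 gained one and 43 changed sign. In control granule against total, 8 members were called with DESeq2, voom, no expression filter, the GC trend removed and only the groups compared, and 0 to 8 with a library left out. In knockout granule against total, the groups compared alone gave 0 members and 0 of all genes. Leaving out a library moved the number of members both below and above that of the main fit, depending on the library. For knockout against control in total RNA, DESeq2 called 4, no filter 3, and removal of the GC trend with or without the replicate block 2, with 0 to 6 when a library was left out. In the granule fraction DESeq2 and no filter called 4, voom and the groups compared alone 9, and removal of the GC trend with or without the block 5, with 0 to 6 when a library was left out. For the genotype difference DESeq2 called 1, and leaving out a library gave 0 to 5. In control granule against total, no filter, the GC trend removed and only the groups compared called 13.2%, 20.5% and 42.4% of all genes. In total RNA, no filter and removal of the GC trend without and with the block called 11.2%, 4.25% and 1.95%. In the granule fraction the same settings called 11.2%, 24.3% and 20.2%. The main fit called 10.1%, 0.412% and 9.45% in these comparisons, and the shares for DESeq2 and voom are given above. The causes were not tested.

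Whether the replicate numbers pair the samples could not be decided here. Differences between replicates correlated between groups at -0.602 to 0.19 over 10261 genes. They also followed GC content in opposite directions in control total and knockout total RNA, which can hide a pairing. With the replicate block 5, 7, 0, 2 and 0 members were called in the 5 comparisons in the order above, against 5, 8, 0, 2 and 0 without it, and over all genes 581, 1898, 0, 670 and 0 against 1906, 3343, 78, 1791 and 98. Over the other alternatives with all libraries, counts over all genes reached 7402, 6130, 3407, 10423 and 3476. With a library left out they ran from 0 to 8118, 243 to 9707, 0 to 9627, 0 to 7834 and 0 to 9348.

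Sign changes touched values that were not called. With the GC trend removed, without and with the block, Klf4 in control granule against total was 0.072 and 0.073, and in knockout against control total RNA Egr3 was 0.142 and 0.116, Arc 0.201 and 0.195, and Ier2 0.546 and 0.544. In that comparison median-of-ratios scaling, DESeq2 and no filter gave 0.028, 0.031 and 0.074 for Egr3 and 0.009, 0.009 and 0.027 for Ier2, and library size alone gave -0.040 for Nr4a1. For the genotype difference Nr4a2 was 0.051 by library size alone and 0.088 and 0.146 with the GC trend removed, Arc -0.086 without a filter and -0.863 and -0.868, Ier2 -0.232 and -0.228, and Ier3 -0.010 without the block. With a library left out, Nr4a3 ran from -0.675 to 0.168 in control granule against total. In knockout against control total RNA Egr3 ran from -0.233 to 0.299, Nr4a3 from -0.187 to 0.691, Ier2 from -0.952 to 0.567 and Ier3 from -0.477 to 0.561. For the genotype difference Nr4a2 ran from -0.918 to 0.686, Arc from -0.288 to 0.336 and Ier3 from -0.037 to 0.948. Scaling by library size alone moved the median of all genes from -0.06 to -0.186 in control granule against total and from 0.0893 to 0.279 for the genotype difference. Depth limited Nr4a3 and Egr3 most, with 62 and 67 counts in their lowest libraries.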
